A study of Mus musculus with 2 samples.

Results

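The Polycomb genes, 9 of the 21728 protein-coding genes on chromosomes 1 to 19 and X, were followed in single-cell ATAC-seq of mouse hematopoietic stem cells (HSCs). They are set by name: Ezh1, Ezh2, Eed and Suz12 of Polycomb repressive complex PRC2, and Rnf2, Bmi1, Cbx2, Cbx7 and Cbx8 of PRC1. Of the 2 libraries compared, 1 was from young (10-week-old) and 1 from aged (20-month-old) C57BL/6 mice. Both came from bone marrow cells that were CD150+ and CD48-, Flt3- and CD34- within the c-kit+ Sca-1+ fraction lacking Lin and the IL-7 receptor (IL-7Rα). Per the study's methods the antibody was to this receptor, and the mice were female. The labels name no transgene and no treatment, and how many mice were pooled for a library is not given in the sources used here. With 1 library per age there was no replicate and no test. Each interval below is a 95% interval that covers the counting of fragments only and not the spread between mice or between library preparations.

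Polycomb proteins keep genes silent through histone marks. PRC2 methylates H3K27 through its catalytic subunit, EZH2 or its paralog EZH1, held together with the core subunits EED and SUZ12. PRC1 ubiquitinates H2A through the RING E3 ligase RNF2 (RING1B) with a PCGF partner such as BMI1, and the canonical form of PRC1 holds a CBX protein whose chromodomain reads methylated H3K27. In HSCs Bmi1 is required for self-renewal, Ezh1 and Ezh2 partly replace each other, and Cbx7 and Cbx8 have been tied to self-renewal and differentiation, respectively.

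The sequences on which the comparison turned are those of Ezh1, the only member whose gene body was called as changed, and, to set beside them, the promoters of Suz12 and Bmi1, which hold more CpG. All are of GRCm38.p6 and are written 5′ to 3′ on the strand of their gene. The 3 promoters are the 250 bases before the RefSeq start. The Ezh1 element is the 300 bases with the most fragment ends of an accessible region in an Ezh1 intron. They lie at chr11:101221415-101221714 (minus strand) for the element, chr11:101226464-101226713 (minus strand) for Ezh1, chr11:79992856-79993105 (plus strand) for Suz12 and chr2:18676768-18677017 (plus strand) for Bmi1. Capitals mark matches, on either strand, to the letters of a motif.
Ezh1 intronic element: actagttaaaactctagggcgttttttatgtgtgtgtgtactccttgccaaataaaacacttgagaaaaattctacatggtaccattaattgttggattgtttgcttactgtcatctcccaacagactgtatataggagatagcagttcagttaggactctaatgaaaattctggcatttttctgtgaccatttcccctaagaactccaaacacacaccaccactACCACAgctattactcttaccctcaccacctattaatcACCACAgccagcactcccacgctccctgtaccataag
Ezh1 promoter: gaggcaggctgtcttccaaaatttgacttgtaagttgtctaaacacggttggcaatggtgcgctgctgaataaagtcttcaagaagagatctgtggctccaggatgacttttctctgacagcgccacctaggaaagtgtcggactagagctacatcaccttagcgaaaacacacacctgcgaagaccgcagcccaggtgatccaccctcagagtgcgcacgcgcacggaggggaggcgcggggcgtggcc
Suz12 promoter: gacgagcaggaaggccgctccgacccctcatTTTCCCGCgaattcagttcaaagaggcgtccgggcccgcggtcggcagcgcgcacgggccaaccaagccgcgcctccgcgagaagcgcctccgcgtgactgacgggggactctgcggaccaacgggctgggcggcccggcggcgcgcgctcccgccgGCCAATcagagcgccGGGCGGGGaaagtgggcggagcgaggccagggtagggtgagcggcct
Bmi1 promoter: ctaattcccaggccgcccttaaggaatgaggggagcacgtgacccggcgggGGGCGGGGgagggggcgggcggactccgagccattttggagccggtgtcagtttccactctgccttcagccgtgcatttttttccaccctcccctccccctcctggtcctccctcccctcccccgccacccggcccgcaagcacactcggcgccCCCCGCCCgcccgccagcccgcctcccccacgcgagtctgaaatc

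The letters of 12 motifs were searched on both strands of the RefSeq promoter windows of 300 bases: E2F (TTTCCCGC or TTTGGCGC), NRF1 (GCGCATGCG), ETS (CCGGAAGT), SP/KLF (GGGCGGGG), the CCAAT box (GCCAAT), YY1 (AAGATGGCG), CRE (TGACGTCA), AP-1 (TGANTCA), STAT (TTCNNNGAA), the GATA factors (AGATAA), RUNX (TGTGGT) and PU.1 (GAGGAAGT). Of the 9 members 8 had a window in the RefSeq promoter table, which did not list Cbx2. The E2F letters were found in Ezh2 and Suz12, and in 2.09% of all 20061 promoter windows. The SP/KLF letters were found in Suz12, Rnf2 and Bmi1 (24.5% of all windows), and the GCCAAT letters in Eed and Suz12 (16.9%). The CRE letters were found in Cbx8 (2.32%) and the RUNX letters in Ezh2 (14.6%). None of the 12 was found in the windows of Ezh1 and Cbx7. The 300 bases printed for the Ezh1 element held the RUNX letters at 2 places. Of the central 300 bases of all 165475 accessible regions, which were not picked by fragment ends, 28.0% held them at 1 place or more. The whole accessible region of 740 bp also held the GATA and the PU.1 letters at 1 place each. These 2 were found in 13.8% and 7.83% of the shorter central windows. These are matches of letters and not binding sites.

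Most of the member promoters were dense in CpG. Within 1 kb of the start, the ratio of observed to expected CpG was 0.988 for Bmi1, 0.888 for Ezh2, 0.885 for Eed, 0.884 for Rnf2, 0.848 for Suz12 and 0.836 for Cbx2, against a median of 0.478 over all 21728 promoters. It was 0.720 for Ezh1, with a GC content of 51.8% that was close to the median of 51.3%. Cbx8 had 0.630, and the annotated 5′ end of Cbx7 had 0.394.

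Barcodes called as cells with 3000 to 20000 in-peak fragments numbered 4887 for young HSCs and 3405 for aged HSCs, with medians of 9890 and 11020 unique fragments per cell. Only 26 barcodes were found in both. The cells held 50065741 young and 38659456 aged fragments, of which 69.1% and 67.6% lay in peaks, and levels are given as fragments per 1000000 in-peak fragments (FPM). Fragments shorter than the DNA of 1 nucleosome made up 59.8% of the young and 55.0% of the aged fragments. Of the 8 HSC markers, Kit had the highest promoter level (51.3 FPM young, 48.0 FPM aged), Slamf1 had 7.11 and 9.61 FPM, Ly6a had 3.01 and 2.83 FPM, and Mecom alone was under the minimum of 50 fragments at its annotated 5′ end. Some promoters of mature cells had less than Ly6a: Cd3e had 0.838 and 0.574 FPM, Ms4a1 0.347 and 0.230 FPM, and Ly6g 0.607 and 0.345 FPM, although none of the markers was at 0. Summed marker levels were 7.83 and 6.01 FPM for 4 T cell genes, 18.3 and 18.8 FPM for 4 B cell genes, 10.3 and 10.5 FPM for 4 granulocyte-monocyte genes, and 21.8 and 20.4 FPM for 4 erythroid genes. The sums were higher for 4 megakaryocyte genes (104 and 92.5 FPM), with Pf4 at 41.6 and 39.2 FPM, and for 4 stromal or endothelial genes (47.7 and 47.4 FPM). The part of other cells in the results was not tested.

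Apart from the annotated 5′ end of Cbx7, the promoters of the Polycomb genes were open in both libraries, and their levels differed by less than 1.2-fold between the ages. A window of 1 kb on either side of the 5′ end of the annotated gene (the start) was counted for each, so that levels can be compared between genes without a correction for length. Ratios are log2(aged / young) of the FPM, after adding 1 fragment to each count. A promoter with at least 50 fragments over both libraries was called at a change of 1.2-fold or more with an interval that leaves out no change. None of the 8 members that passed this minimum was called in either direction. Over all 15955 promoters tested, which were not matched to the members for level, 9.23% were called higher and 3.48% lower in aged HSCs.

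Ezh2, the methyltransferase of PRC2 in dividing cells (chr6:47530139-47595341, minus strand), had 1800 fragments in young and 1152 in aged HSCs. These were 52.0 and 44.1 FPM, a log2 ratio of -0.24 (interval -0.35 to -0.13). Ezh1, which takes the place of Ezh2 in many resting cells (chr11:101191115-101226463, minus strand), had 649 and 522 fragments at its start, or 18.8 and 20.0 FPM. Its ratio was 0.09 (-0.08 to 0.26), so that the paralogs differed in sign, and the interval of Ezh1 included no change. The promoter of Ezh1 was the least open of the 8 in both libraries.

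The core subunits of PRC2 had ratios below 0 that did not reach the call. Eed, whose protein binds methylated H3K27 (chr7:89954654-89980983, minus strand), had 76.5 FPM in young and 68.2 FPM in aged HSCs (2649 and 1781 fragments, ratio -0.17, -0.25 to -0.08). Its window also held the start of E230029C05Rik, a transcript on the other strand that begins 260 bp away, so that the fragments cannot be assigned to one of them. Suz12, which holds PRC2 together (chr11:79993106-80034123, plus strand), had 61.7 and 53.1 FPM (2136 and 1386 fragments, ratio -0.22, -0.32 to -0.12).

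Of the PRC1 genes, Rnf2 and Bmi1 form the core. Rnf2, the E3 ligase (chr1:151458004-151500955, minus strand), had 55.1 FPM in young and 53.0 FPM in aged HSCs (1907 and 1385 fragments, ratio -0.06, -0.16 to 0.04). Bmi1, its PCGF partner (chr2:18677018-18686629, plus strand), had 37.9 and 35.3 FPM (1310 and 923 fragments, ratio -0.10, -0.22 to 0.02). For both genes the interval included no change.

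The chromodomain genes differed among themselves in level. Cbx2 (chr11:119022962-119031270, plus strand) had 24.1 and 23.2 FPM (834 and 605 fragments, ratio -0.06, -0.21 to 0.10). Cbx8, which lies next to Cbx2 (chr11:119036305-119040969, minus strand), had 71.7 and 63.9 FPM (2481 and 1670 fragments, ratio -0.17, -0.26 to -0.08). Cbx7 (chr15:79915807-79971119, minus strand) had 15 fragments in either library at its annotated 5′ end, 0.433 and 0.574 FPM, which is under the minimum, and this end belongs to a long transcript. At its RefSeq start, 38473 bp downstream, 993 young and 665 aged fragments were counted, or 28.7 and 25.5 FPM (ratio -0.17, -0.32 to -0.03). The RefSeq start of Cbx7 was examined after its values at the annotated end had been seen.

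**Figure D1:**
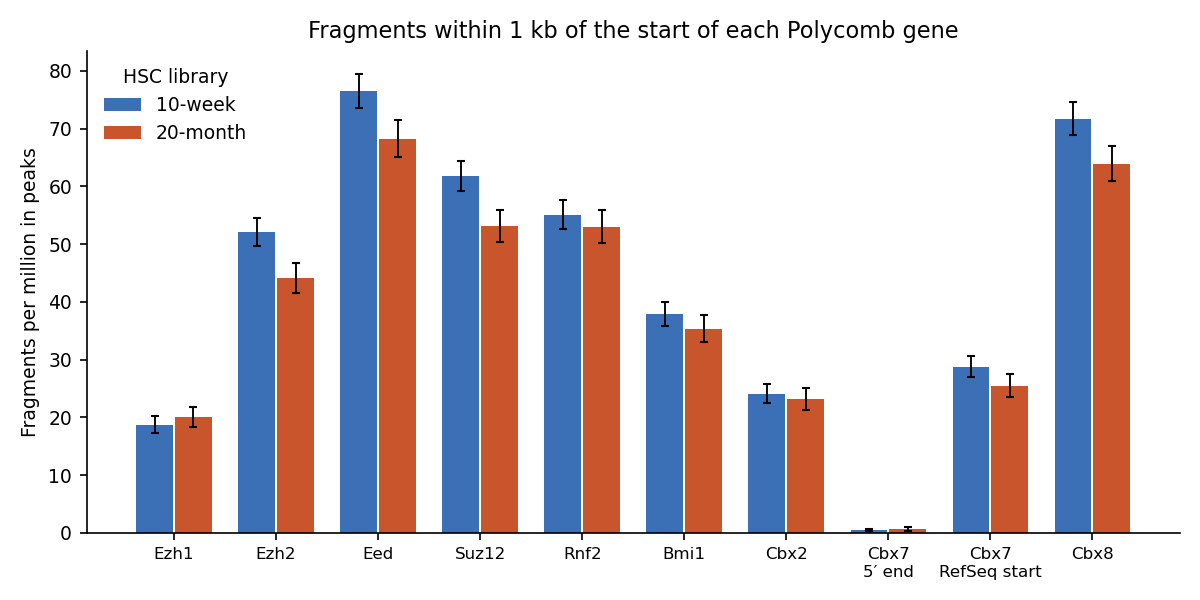
Bars show the FPM within 1 kb of the start of each gene for young (10-week, blue) and aged (20-month, orange) HSCs, and error bars are 95% counting intervals with 1 library per age. Eed and Cbx8 stand highest (76.5 and 71.7 FPM young), the aged bar is lower for each gene but Ezh1 and the 5′ end of Cbx7, and the 5′ end of Cbx7 is near 0 while its RefSeq start has 28.7 FPM.

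In the young library the promoters ranked Eed, Cbx8, Suz12, Rnf2, Ezh2, Bmi1, Cbx2 and Ezh1 from high to low, with the annotated end of Cbx7 last. Each neighbour in this order differed beyond its counting interval except Rnf2 and Ezh2, whose fold was 1.06 (0.993 to 1.13). The order was the same in the aged library, where Eed and Cbx8 (fold 1.07, 0.997 to 1.14) and Suz12 and Rnf2 (fold 1.001, 0.928 to 1.08) could not be told apart. Rnf2 and Ezh2, in contrast, stood 1.202-fold apart there (1.11 to 1.30). Among all tested promoters the young levels of these genes other than Cbx7 stood between percentile 38.4 (Ezh1) and percentile 96.7 (Eed), with Ezh2 at percentile 85.3. The annotated end of Cbx7, under the minimum of fragments, would stand at percentile 0.0752.

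The median ratio of the 9 promoters was -0.10, beside -0.05 over all promoters tested, whose values ran from -0.28 at the 5th to 0.51 at the 95th percentile. The 9 include the annotated end of Cbx7, which was under the minimum. At the RefSeq starts, with Cbx2 at its annotated end, the median was -0.17. Of the 9, 7 had a ratio below 0, as had 64.3% of all tested promoters. For 4 of the 9 (Ezh2, Eed, Suz12 and Cbx8) the whole interval lay below 0, and for none above it. Over all tested promoters these shares were 23.3% and 12.2%. The interval is narrow only for promoters with many fragments, and the ratios of all promoters moved with the level. The median was 0.09 in the lowest tertile of levels, -0.05 in the middle and -0.09 in the highest tertile, which held 6 of the 8 tested members. Among the 9309 promoters whose young level lay between those of Ezh1 and Eed, the median was -0.08, with a 5th and 95th percentile of -0.22 and 0.10. Ezh2 lay under this range at -0.24, Suz12 at its lower end, and the other tested members inside it.

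**Figure D2:**
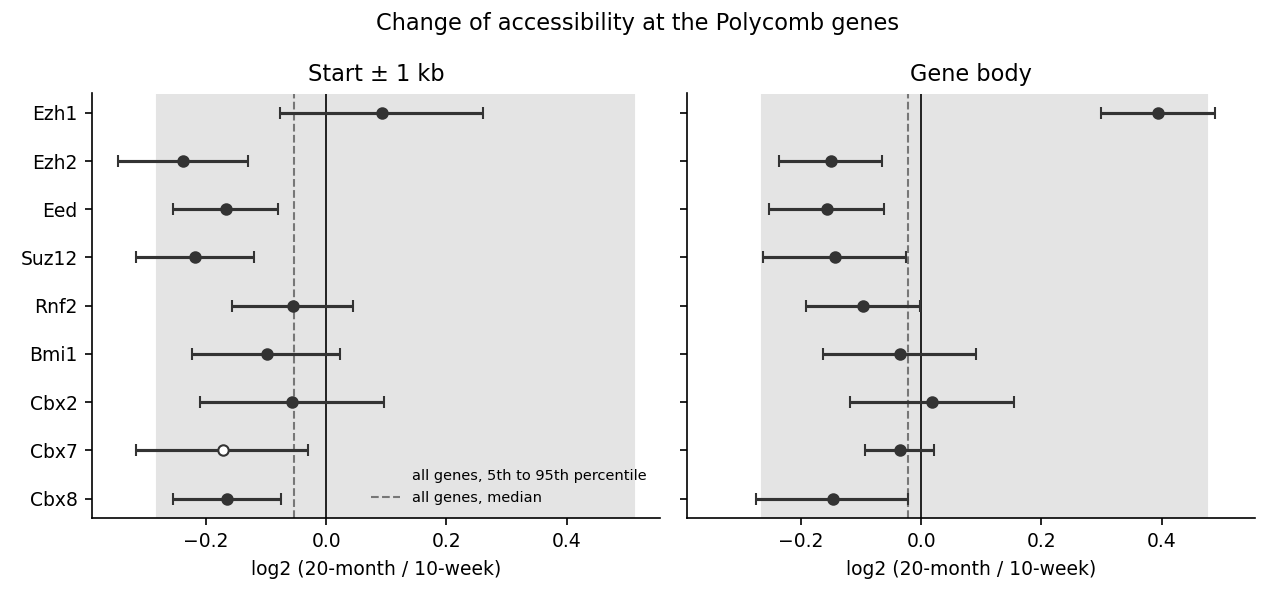
Points show log2(aged / young) of the FPM for each gene, left within 1 kb of the start and right over the gene body, with 95% counting intervals (1 library per age, open circle for the RefSeq start of Cbx7). Grey bands span the 5th to 95th percentile of all genes and dashed lines are their medians (-0.05 and -0.02). The Ezh1 gene body, at 0.39, stands to the right of the other points.

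Around the start, the 50-bp window with the most fragment ends lay at the same distance in both libraries for each member but Ezh2. Suz12 had its highest density of fragment ends 25 bp before the start, with 14.5 ends per 1000000 in-peak fragments per 50 bp in young and 11.7 in aged HSCs. Cbx8 had it 125 bp before the start (15.8 and 14.3), and Bmi1 175 bp before it (6.88 and 6.24). Eed had 3 separate summits, the highest of them 475 bp inside the gene (13.7 and 12.0). For Ezh2 the highest window was 175 bp inside the gene in young and 225 bp inside it in aged HSCs, which is a step of 1 window. The share of ends that lay before the start was 61.4% and 60.3% for Suz12, 64.1% and 64.0% for Cbx8, and 67.5% and 62.7% for Bmi1. Ezh1 had 27.3% and 23.2% of its ends before the start, so that most of its signal lay inside the gene.

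**Figure D3:**
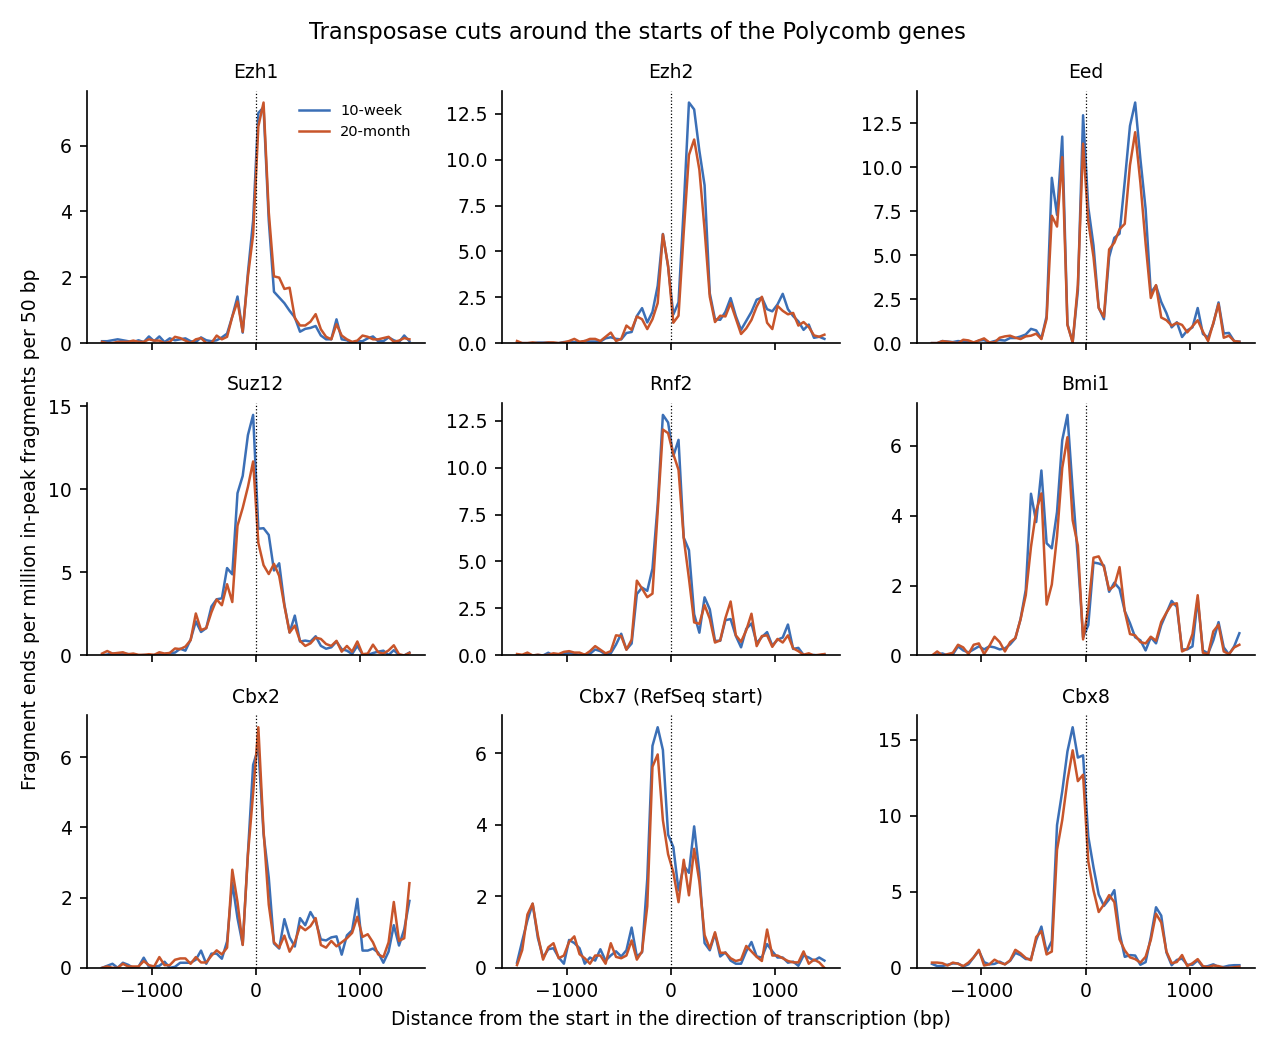
Lines show fragment ends per 1000000 in-peak fragments in windows of 50 bp around the start of each gene, with the distance in bp in the direction of transcription, for the young (blue) and the aged (orange) library. Each panel has its own axis from 0. Summits lie at the same distance in both libraries for each gene but Ezh2, and the blue line is the higher one at the summit of each gene but Ezh1 and Cbx2.

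Fragments were fewer than the cells, so most cells had none at a given promoter. A fragment within 1 kb of the start of Eed was found in 40.8% of young (39.4 to 42.2%) and 39.1% of aged cells (37.5 to 40.8%). For Ezh1 the shares were 12.2% (11.3 to 13.1%) and 13.6% (12.5 to 14.8%), and for the 5′ end of Cbx7 they were 0.307% and 0.441%. Aged cells were deeper, so each cell was thinned to 3000 fragments in peaks, which left out 101 young and 134 aged cells with fewer. The shares for Eed were then 19.7% (18.6 to 20.9%) and 17.6% (16.3 to 18.99%). Those for Suz12 were 15.8% (14.8 to 16.9%) and 13.2% (12.1 to 14.4%), and those for Ezh2 13.9% (12.9 to 14.9%) and 12.0% (10.9 to 13.2%). Ezh1 went the other way, with 4.81% (4.22 to 5.45%) and 5.26% (4.52 to 6.08%). Over the 9 members the median difference, aged minus young, was -1.04 percentage points in thinned cells and 0.101 points without thinning. The sign of the median thus differed between thinned and whole cells.

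Fragment length differed between the libraries at the members as it did over all promoters. With 1 library per age, a difference of age cannot be told apart from one of library preparation here. The share of fragments shorter than the DNA of 1 nucleosome was 67.6% in young and 63.9% in aged HSCs over all promoter windows. At Bmi1 it was 81.1% and 76.5%, at Suz12 75.1% and 70.9%, and at Ezh1 69.0% and 61.7%. It was lower in the aged library at each of the 9, but little so at Cbx2 (63.4% and 62.3%), and Cbx7 had only 15 fragments in either library at its annotated end. With short fragments alone the median promoter ratio of the 9 was -0.15, and with longer ones alone -0.12.

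Over gene bodies, from the annotated start to the end of the gene, 1 of the 9 was called. Ezh1 rose from 52.4 FPM (1812 fragments) in young to 68.8 FPM (1797 fragments) in aged HSCs, a ratio of 0.39 (0.30 to 0.49) and the percentile 93.1 of all gene bodies. Of the 18420 gene bodies tested, 9.85% were called higher and 3.63% lower, so 1 of 9 is near the background. The body count includes the first kb of the promoter window. Eed had a ratio of -0.16 (-0.25 to -0.06), Ezh2 of -0.15 (-0.24 to -0.06), Cbx8 of -0.15 (-0.27 to -0.02), Suz12 of -0.14 (-0.26 to -0.03) and Rnf2 of -0.10 (-0.19 to -0.0017). Bmi1 (-0.04, -0.16 to 0.09), Cbx7 (-0.04, -0.09 to 0.02) and Cbx2 (0.02, -0.12 to 0.15) had intervals that included no change. The median of the 9 was -0.10, beside -0.02 over all gene bodies. Without 1 kb on either side of each annotated transcript start, the ratio was 0.05 (-0.10 to 0.19) for Ezh2, 0.01 (-0.20 to 0.22) for Suz12 and 0.28 (-0.13 to 0.69) for Cbx2, and the median was -0.0033, while Ezh1 had 0.61 (0.49 to 0.73).

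Per kb of gene, the levels were highest in the shortest genes, Cbx8, Cbx2 and Bmi1. The body count holds the signal inside the start, which is divided by a smaller length in a short gene, so this order does not compare openness apart from length. Cbx8, with 4.67 kb, had 7.87 FPM per kb in young and 7.11 in aged HSCs. Bmi1 had 3.60 and 3.52 FPM per kb, Cbx2 3.54 and 3.58, and Cbx7, although 55.3 kb long, 2.96 and 2.88. Suz12 had the least, with 1.01 and 0.911 FPM per kb, and its promoter nevertheless ranked near the top. Ezh1 (1.48 and 1.95 FPM per kb) stood close to Rnf2 (1.47 and 1.37 FPM per kb) in young HSCs and above it in aged HSCs.

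The rise of the Ezh1 gene body lay mostly in 1 place. An accessible region of 740 bp at chr11:101221106-101221845, in an Ezh1 intron with its centre 4987 bp inside the gene, had 509 fragments in young and 710 in aged HSCs. These were 14.7 and 27.2 FPM, a ratio of 0.89 (0.72 to 1.05). The 300 bases printed for the Ezh1 element are those with the most fragment ends within it. Although shorter than the promoter window of Ezh1 (18.8 and 20.0 FPM), the element had more fragments than this window in the aged library. It was the region with the most fragments of those over 1 kb from the 5′ end of any annotated gene within the locus of Ezh1, which is why it was looked at. This place rests on its aged count, since in young HSCs the region 5788 bp before the start had more fragments (660). Of the 128364 accessible regions tested in the genome, not matched for level, 6.87% had the ratio of the element or a higher one. Among the 12650 regions with at least as many fragments, 8 did, the element included. The element was picked for its fragments, so neither share is a test of it.

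The element held 28.1% of the fragments of the Ezh1 body in young and 39.5% in aged HSCs. The first kb of the gene had 15.8 and 17.3 FPM (ratio 0.13, -0.05 to 0.32). Between the element and the first kb, 101 and 146 fragments were counted (ratio 0.93, 0.56 to 1.32). Beyond the element, the remaining 3′ part of the gene had 706 and 589 fragments (ratio 0.14, -0.02 to 0.30). A bin of 500 bp centred 7712 bp inside the gene went from 29 to 60 fragments (ratio 1.43, 0.79 to 2.15), and one at 1712 bp from 21 to 30 (ratio 0.90, 0.07 to 1.80). Accessible regions farther in, at 14332 bp (8.35 and 7.12 FPM, ratio -0.23, -0.50 to 0.04) and at 25207 bp (3.50 and 3.02 FPM, -0.20, -0.64 to 0.21), had intervals that included no change. So had the region 5788 bp before the start (19.1 and 17.8 FPM, -0.10, -0.28 to 0.07). The small accessible region at 7617 bp, which overlaps the bin at 7712 bp, was also called higher (24 and 51 fragments, ratio 1.46, 0.77 to 2.26). These neighbours of the element were read after its values had been seen.

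**Figure D4:**
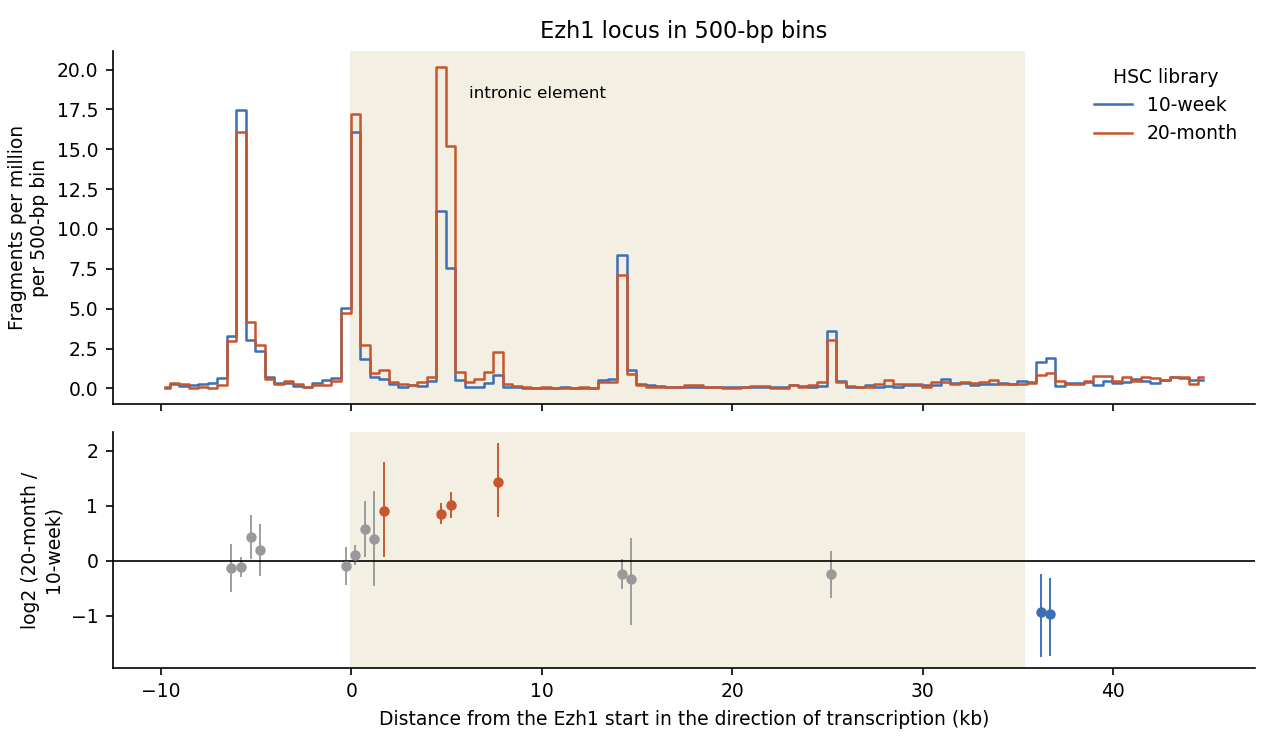
The upper panel shows the FPM of 500-bp bins by distance in kb from the Ezh1 start in the direction of transcription, for the young (blue) and the aged (orange) library, with the gene body shaded. The lower panel shows the log2 ratio of each bin with at least 50 fragments with its 95% counting interval, orange where called higher and blue where called lower. The intronic element near 5 kb is the one tall signal where the orange line is well above the blue one.

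More aged cells held a fragment of the Ezh1 element. Of the 4887 young cells 452 had one (9.25%, exact binomial interval 8.45 to 10.1%), and of the 3405 aged cells 627 had one (18.4%, 17.1 to 19.8%). These shares restate the same fragments, and the intervals count cells of 1 library per age, which are not replicates. In cells of 3000 to 6000 in-peak fragments the shares were 5.53% (4.19 to 7.13%) and 10.8% (8.72 to 13.2%). In cells of 6000 to 9000 fragments they were 9.08% (7.89 to 10.4%) and 16.9% (14.6 to 19.4%), and in deeper cells 11.5% (10.1 to 13.1%) and 22.9% (20.9 to 24.99%). Short fragments made up 78.0% (74.1 to 81.5%) of the young and 71.4% (67.9 to 74.7%) of the aged fragments at the element. The bands of depth were set after the element had been seen.

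The loci of the members, from 50 kb before to 50 kb after each gene, were searched in bins of 500 bp. Of 2193 bins, 443 had at least 50 fragments, and 18 of these (4.06%) were higher and 14 (3.16%) lower in aged HSCs at 1.5-fold or more with an interval that leaves out no change. Over the 299411 bins of the genome that passed the same minimum, 11.1% were called higher and 3.64% lower. A bin with few fragments could pass this minimum through the library in which it was higher. The share called higher was smaller around the members. The bins of the genome were not matched to those of the members for level, and promoter ratios moved with the level. The part of the level in this difference was not tested. Ezh1 had 6 higher and 3 lower bins of 80, Cbx7 5 and 2 of 105, Suz12 3 and 3 of 47, and Rnf2 1 and 1 of 31. Eed had 1 higher bin of 23 and Bmi1 1 of 40. Ezh2 had none of 25. Cbx2 had 0 higher and 5 lower bins of 74 and Cbx8 1 and 5 of 86, but both loci overlap and share all 5 lower bins.

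The called bin of Eed lay at the far edge of its locus. At chr7:90030501-90031000, in an exon of the unclassified transcript Gm44860 and an intron of E230029C05Rik, 122 young and 236 aged fragments were counted. These were 3.53 and 9.03 FPM (ratio 1.35, 1.04 to 1.69), 49768 bp before the Eed start. Around Suz12 the higher bin with the largest ratio was at chr11:79966001-79966500, 26855 bp before the gene (37 and 75 fragments, ratio 1.41, 0.84 to 2.03). Lower bins lay 10855 bp before the gene (73 and 24 fragments, ratio -1.16, -1.93 to -0.52) and 59645 bp after its start in an intron of Crlf3 (74 and 21 fragments, ratio -1.36, -2.19 to -0.70). Suz12 thus had called bins of both directions in its flanks. Another bin of Suz12, 1145 bp inside the gene, had 44 and 59 fragments (ratio 0.82, 0.24 to 1.43).

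Cbx7 was called in both directions inside the gene. An intronic stretch at chr15:79946501-79947500 went from 102 to 38 fragments (ratio -0.995, -1.60 to -0.47). At the 3′ end of the gene, chr15:79916501-79917500 in exonic sequence, the count went from 196 to 237 (ratio 0.68, 0.40 to 0.96), and the neighbouring chr15:79915001-79916000, which also holds an exon of Apobec3, went from 75 to 95 (ratio 0.74, 0.29 to 1.203). This last stretch cannot be assigned to one of the genes. In the flank, a bin 90868 bp from the annotated end of Cbx7 had 21 and 32 fragments (ratio 0.99, 0.17 to 1.88). The sum over the gene was even, with a body ratio of -0.04.

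Most tested bins of the neighbouring Cbx2 and Cbx8 loci were not called. In an exon of Enpp7, chr11:118992501-118993500 went from 134 to 60 fragments (ratio -0.74, -1.22 to -0.30). In an exon of Cbx8, chr11:119036501-119037000 had 46 and 20 fragments (ratio -0.76, -1.63 to -0.01).

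Around Rnf2, 1 bin just upstream of the start (796 bp) had 34 and 45 fragments (ratio 0.80, 0.14 to 1.497), and 1 in an intron of Trmt1l had 44 and 15 (ratio -1.09, -2.10 to -0.27). The called bin of Bmi1, 13733 bp from its start and beyond its 3′ end, had 68 and 79 fragments (ratio 0.62, 0.14 to 1.11). In the flanks of Ezh1, 2 bins were called higher and 3 lower, of which the bin near the start of Ramp2 had 41 and 57 fragments (ratio 0.87, 0.28 to 1.497).

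For each member the region with the most fragments over 1 kb from the 5′ end of any annotated gene was also read. Starts of further transcripts inside a gene were not left out. The Cbx7 locus had the strongest, in an intron of Pdgfb 35292 bp upstream of the annotated end, with 35.1 and 32.4 FPM (ratio -0.12, -0.24 to 0.01). Bmi1 had one inside its own gene that holds the start of shorter annotated Bmi1 transcripts (16.4 and 15.3 FPM, -0.10, -0.29 to 0.08). The strongest near Suz12 lay in Crlf3 (16.2 and 13.8 FPM, -0.22, -0.42 to -0.03), and that near Rnf2 in an exon of Swt1 (9.13 and 7.46 FPM, -0.29, -0.56 to -0.03). Cbx2 (9.59 and 10.2 FPM, within 1 kb of the start of a further Cbx2 transcript), Eed (9.04 and 8.996 FPM) and Ezh2 (4.28 and 3.60 FPM) had intervals that included no change. Over the 9 loci, 118 of 136 such regions passed the minimum, of which 5 were called higher and 7 lower at 1.5-fold. The 136 include the region at the RefSeq start of Cbx7, which lies far from the annotated 5′ end of that gene. Over the 103526 such regions tested in the genome, which were not matched for level, 13.4% were called higher and 6.17% lower.

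Of 41 further Polycomb genes, 40 had at least 50 fragments at the start, and none was called higher or lower at 1.2-fold, beside 9.23% and 3.48% of all promoters. Their median young level was 35.2 FPM, beside 26.3 FPM over all promoters tested, and the shares were not matched for level. Their median ratio was -0.10, beside -0.05 over all promoters, with 5 of 40 above 0, between -0.24 for Ogt and 0.24 for Pcgf2. By complex, the median was -0.09 for 21 PRC1 genes, -0.13 for 9 PRC2 genes, -0.08 for 8 genes of the deubiquitinase PR-DUB, and -0.10 for the 2 H3K27 demethylases Kdm6a and Kdm6b. Pcgf2, a paralog of Bmi1, had 21.7 FPM in young and 25.6 FPM in aged HSCs (ratio 0.24, 0.08 to 0.39). Ogt, a glycosyltransferase of the PR-DUB list, had 26.96 and 22.7 FPM (ratio -0.24, -0.40 to -0.10). Ring1, the paralog of Rnf2, had 25.7 and 24.8 FPM (ratio -0.05, -0.20 to 0.10), a lower level than that of Rnf2 in both libraries. These 3 genes were picked after their values had been seen.

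Over gene bodies, 3 of the 41 were called higher and 1 lower, beside 9.85% and 3.63% of all gene bodies. The bodies of Asxl3 (ratio 0.50, 0.34 to 0.65), Auts2 (0.47, 0.43 to 0.51) and Scmh1 (0.27, 0.18 to 0.35) were higher in aged HSCs. That of Rbbp4, a histone-binding subunit of PRC2, was lower (-0.29, -0.41 to -0.18). The promoters of these 4 genes were not called.

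A list of 24 genes that Polycomb complexes are known to hold silent, most of them developmental regulators, was read as well. Like the other gene lists, it was chosen with earlier results of these data known, so its counts are no independent test. At their promoters 8 of the 24 were called higher in aged HSCs and none lower, beside 9.23% and 3.48% of all promoters. The median ratio was 0.22, and 22 of the 24 were above 0. The largest ratios were those of Nkx2-2 (11.7 and 16.0 FPM, 0.45, 0.25 to 0.65), Hand2 (6.62 and 9.03 FPM, 0.45, 0.18 to 0.72), Dlx5 (6.53 and 8.73 FPM, 0.42, 0.15 to 0.69) and Olig2 (9.16 and 12.1 FPM, 0.41, 0.18 to 0.64). These genes direct the development of other organs. Cdkn2a, the cell cycle inhibitor locus that Bmi1 holds silent in HSCs, had 14.2 and 14.4 FPM at its annotated 5′ end (0.02, -0.18 to 0.21), and its gene body was called higher (0.38, 0.24 to 0.53). Of the 24 gene bodies, 6 were called higher and none lower, beside 9.85% and 3.63% of all gene bodies. Cdkn2a was chosen after its values had been seen.

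The targets were low in accessibility, and low promoters had higher ratios in general. Their young levels ran from 2.54 to 30.6 FPM, and 21 of the 24 lay in the lowest tertile of all promoters, for which the median ratio was 0.09. Over all 7650 promoters in the range of the targets' young levels the median was 0.01, with a 95th percentile of 0.53, above each of the targets. The part of the level in the ratios of the targets was not tested.

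**Figure D5:**
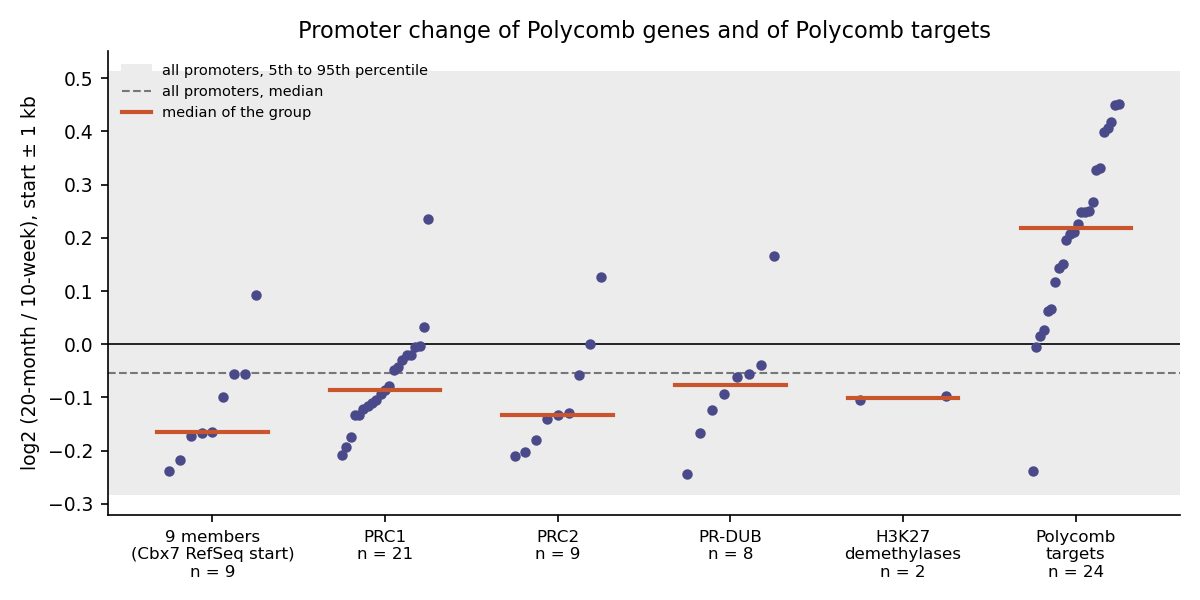
Each point is log2(aged / young) of the FPM within 1 kb of the start of 1 gene, sorted within its group, and orange lines are group medians. The grey band spans the 5th to 95th percentile of all promoters, and the dashed line is their median (-0.05). The medians of the 4 groups of other Polycomb genes lie between -0.13 and -0.08, and that of the targets lies at 0.22. The gene lists were chosen with earlier results of these data known.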

How the data were processed

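Single-cell ATAC-seq libraries of sorted HSCs, 1 per age and grouped by the age in the labels, had been made with a droplet kit. Cell Ranger ATAC, run by the authors with an mm10 reference, had aligned reads, removed duplicates and called cells, and they deposited a list of unique fragments and a table of barcodes whose columns are counts with no normalization. The members and the gene lists were chosen with earlier results of these data known. Cells were barcodes called by the authors with 3000 to 20000 in-peak fragments, and doublets were not removed. Accessible regions (peaks) were found from the fragment ends of each library (Poisson, q of 0.001) and joined to 165475 regions. A fragment counted once in a region where at least 1 end lay in it, with GENCODE M21 annotation on GRCm38, the build of mm10. Sequences and RefSeq starts came from RefSeq. Counts were scaled to fragments in these peaks. A ratio interval is the exact binomial interval of the aged share of the fragments, and covers counting error only. All 9 members are named, with the called bins (at most 4 per locus, by ratio), the strongest distal region of each locus and at most 4 called genes of the other lists in each direction. Other named genes were chosen after their values were seen. Some results that this rule would name at the Cbx2 and Cbx8 loci are not reported here. The counting was tested on simulated data. Python 3.11.15, numpy 2.4.6, scipy 1.17.1, pandas 2.3.3 and numba 0.67.0 were used.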

Additional observations from a re-analysis of the deposited data

How the results depend on the processing

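With 1 library per age, no result has a replicate check, and no fragment count can show whether a difference between libraries is one of age. No paired analysis was possible because each age had 1 library. The median promoter ratio of the 9 members was below 0 under each of 14 alternatives (-0.17 to -0.05) and the median gene body ratio under each of 10 (-0.14 to -0.0033). The median over all promoters tested was also below 0 under each setting for which it was computed (-0.09 to -0.0027), so the sign does not set the members apart. Some settings moved the calls, 4 of 11 by over 1.5 times for bins and 6 of 11 away from 0 for the other Polycomb genes. In place of 32 called bins in the member loci there were 69 when each fragment end counted, 18 with fragments of nucleosome length or longer, 6 with a minimum of 200 fragments and 8 at 2-fold. The balance of directions also moved with the scaling. In place of 18 higher and 14 lower bins there were 27 and 10 when scaled to fragments at coding starts, and 16 and 15 when scaled to all fragments. In place of 0 other Polycomb genes called at promoters there were 1 each when scaled to all fragments, to fragments at coding starts, or with short fragments alone, 4 with longer fragments alone, 4 within 500 bp of the start and 2 within 5 kb. The median difference in the share of cells was 0.101 points without thinning, in place of -1.04. Most settings recounted largely the same fragments, so staying within a counting interval was likely beforehand and is no test of a value. Of 225 values of single members or of the Ezh1 element, 217 stayed within the interval of the value reported. The only ones called, the Ezh1 body and the element, kept their sign. Some of the others changed sign, among them the Cbx7 promoter at its annotated end (-0.92 to 0.86), the Bmi1 promoter (-0.15 to 0.04) and the Ezh2 body (-0.23 to 0.05). The Ezh1 body ratio ranged from 0.35 to 0.61 and the element from 0.81 to 1.08. The Ezh1 promoter ratio reached 0.39 within 5 kb of the start, a window that includes the element. The RefSeq starts, the shares without thinning and the values of the element under these settings were added after seeing the data. At the RefSeq starts 5 of 8 intervals lay below 0, and Cbx2 kept its annotated end in that median. The cause of the moves was not tested.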
